A study of Sus scrofa with 4 samples.

Results

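The genes examined were 10 histone acetyltransferase genes of the pig, EP300, CREBBP, KAT2A, KAT2B, KAT5, KAT6A, KAT6B, KAT7, KAT8 and HAT1, out of 19550 protein-coding gene models of the build Sscrofa11.1. Each was taken as its RefSeq gene model with 10 kb on both sides, and every ATAC-seq peak that overlapped this window was assigned to it. The windows held 69 of the 121788 open regions found in the series. ATAC-seq marks open chromatin by the cuts of the Tn5 transposase, so the values below are positions and heights of open chromatin and not levels of RNA or protein.

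The cells were porcine fetal fibroblasts (PFFs) from skin, used in the study as nuclear donors for cloning, and all were serum-starved. The BRG1 group held 2 libraries of cells that over-expressed BRG1 from the vector pTK-642-BRG1, named BRG1 1 and BRG1 4. The control group held 2 libraries of cells of genotype WT with the vector pTK-642, named control 1 and control 4. The promoter of the vector was not given in these sources, and nothing in the labels says that the libraries of a group are separate cultures. Differences between libraries can therefore be technical. BRG1, the product of SMARCA4, is a catalytic subunit of BAF, a complex that moves nucleosomes, and the study asked how its over-expression bears on chromatin openness and histone modification in donor cells.

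Histone acetyltransferases move an acetyl group from acetyl-CoA to lysines of the histone tails, which loosens nucleosomes and makes binding sites for bromodomain proteins. The roles below are known mainly from human, mouse and yeast. The EP300 and CREBBP proteins are large coactivators of enhancers and promoters, KAT2A and KAT2B work in the SAGA and ATAC complexes, KAT5 to KAT8 share the MYST domain, and HAT1 acts on newly made histones before they enter chromatin. Histone acetylation is also known to bear on how nuclear transfer embryos develop.

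The libraries were checked before the genes. The lists held 96367 and 90851 peaks in BRG1 1 and BRG1 4, against 107475 and 105954 in control 1 and control 4, and in what follows a pair of values for a group is always library 1 and then library 4. Depth, read from the lowest background level of each list, was 81.2% and 92.6% of that of control 1 in the BRG1 libraries, against 93.5% in control 4. BRG1 4 stood apart by its wide peaks, with a median of 541 bp, against 404 bp in BRG1 1 and 403 and 396 bp in the control libraries. Markers of cell types were compared by open gene ends, a gene end being the 1 kb on either side of an end of the model. A peak of all 4 libraries lay at an end of 12 of 14 fibroblast markers, with FN1 called in BRG1 1 only and DCN in no library. Of all coding gene models, 68.2% had such a peak. So did 2 of 6 keratinocyte, 1 of 5 endothelial, 2 of 5 immune (CD3E and SPI1) and 2 of 5 melanocyte markers.

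The acetyltransferase genes were open in all 4 libraries, and most of their open regions did not differ in call between the groups. Their windows held 60 and 59 peaks in the BRG1 libraries, against 60 and 62 peaks in the control libraries. The mean number of peaks in the BRG1 group was 0.975 times that in the control group, and the groups differed by no more than 3 peaks between any pair of libraries. Together the peaks covered 31253 and 35686 bp in the BRG1 libraries, against 33641 and 33382 bp in the control libraries, a ratio of means of 0.999, and the control values lay between the BRG1 values. The peaks made up 0.0623% and 0.0649% of the BRG1 lists, against 0.0558% and 0.0585% of the control lists, which were longer.

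Peak density in the windows was close to that of genes in general in each library. The median over the 10 genes was 6.71 and 6.17 peaks per 100 kb of window in the BRG1 libraries, against 6.62 and 6.85 in the control libraries. Over all 19550 gene models it was 6.42 and 6.05 in the BRG1 libraries, against 7.01 and 6.89 in the control libraries. Single genes ranged widely. KAT2A, a short gene among close neighbours, held 17.3 and 17.3 peaks per 100 kb in the BRG1 libraries, against 17.3 and 20.7 in the control libraries. KAT2B, a long gene with no other coding gene in its window, held 2.97 and 1.49 peaks per 100 kb in the BRG1 libraries, against 2.97 and 2.23 in the control libraries.

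**Figure D1:**
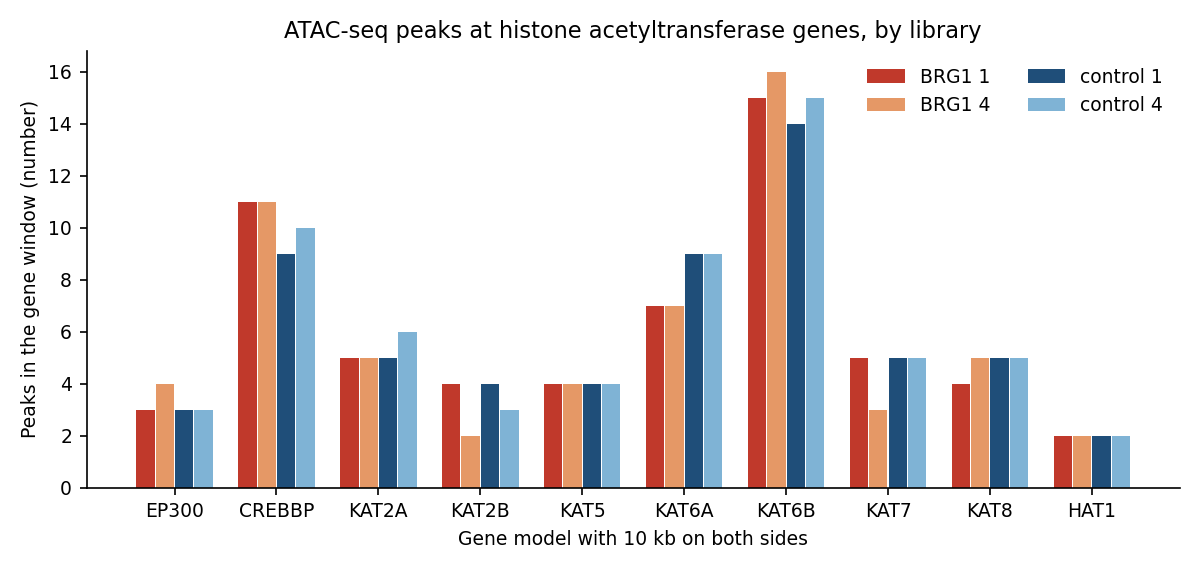
Number of peaks (vertical axis) in the window of each acetyltransferase gene (horizontal axis), 1 bar per library with BRG1 libraries left of control libraries. KAT6B held 14 to 16 peaks and HAT1 held 2 in every library; the bars of the groups were apart without overlap at CREBBP (11 and 11 against 9 and 10) and KAT6A (7 and 7 against 9 and 9).

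An end with a peak in all 4 libraries was found at 9 of the 10 genes, beside 68.2% of all coding gene models, and the exception was KAT6B. To compare strength within a list, each peak was ranked by its −log10 p-value, and the percentile is that rank as a percentage of the list, the weakest peak lying near 0. Percentiles were averaged over libraries and are not compared between them, because the lists differ in length. Among the genes that had such a peak in every library, the quartiles of this mean were 73.9, 89.0 and 95.6. The acetyltransferase genes ran from KAT2B at 58.0 through KAT2A at 80.5, KAT6A at 86.6, CREBBP at 87.8, KAT5 at 94.9, EP300 at 95.6, HAT1 at 97.8 and KAT8 at 99.2 to KAT7 at 99.9. Thus 99.6% of such genes ranked below KAT7, 95.0% below KAT8 and 13.8% below KAT2B.

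**Figure D2:**
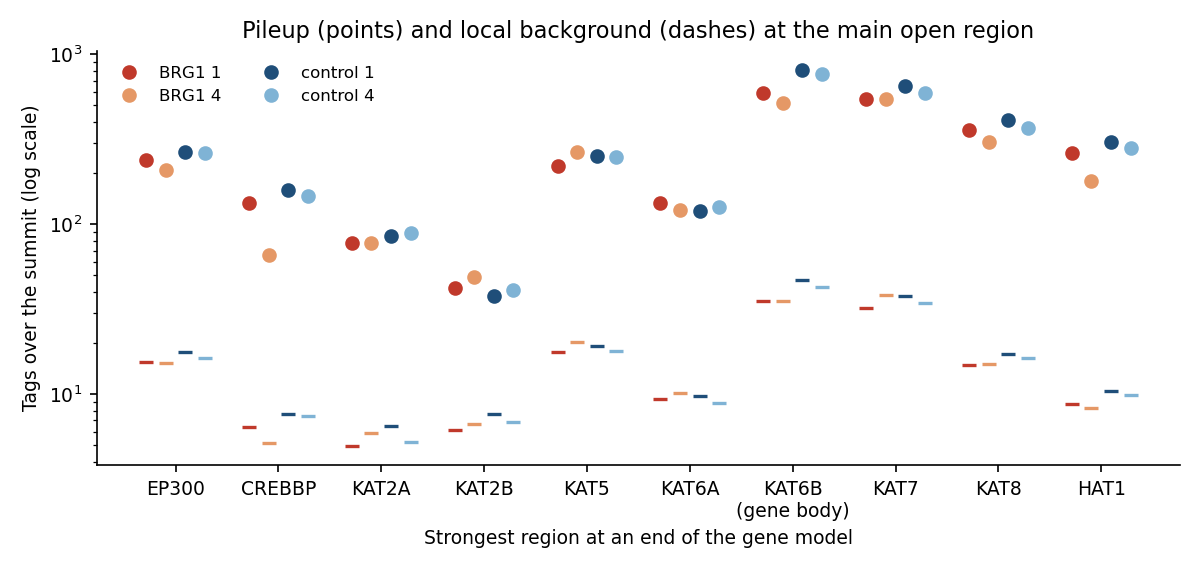
Tags piled up over the summit (points, log scale) and local background (dashes) at the strongest gene-end region of each acetyltransferase gene, or at the strongest region of the gene body for KAT6B, by library. Levels differed widely between genes, with 38 to 49 tags at KAT2B and 515 to 812 at KAT6B, and at CREBBP the 66 tags of BRG1 4 lay apart from the 133 to 158 tags of the other libraries.

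EP300 encodes p300, a coactivator that acetylates histones at enhancers. The gene lies on chromosome 5 from 7311165 to 7394515, and its main open region covered the higher-coordinate end, from 7393411 to 7395086. The pileup at the summit, recovered from the authors' fold and p-value, was 240 and 209 tags in the BRG1 libraries, against 266 and 263 in the control libraries. The local background was 15.4 and 15.3 tags in the BRG1 libraries, against 17.8 and 16.4 in the control libraries. Both were lower in the BRG1 libraries, whose depth was also lower. No pileup given here or below was scaled for depth, and the part of depth in an order of tags was not tested. The share of all regions of the series with BRG1 tags below control tags was not computed. Such an order is therefore not read as particular to these genes. The authors' fold, their ratio of pileup to background within a list with 1 added to each, overlapped between the groups. It was 14.7 and 12.9 in the BRG1 libraries, against 14.2 and 15.2 in the control libraries. In cells measured in bulk, fewer cells with an open site and less opening per cell cannot be told apart. Inside the gene, 27550 bp from the lower-coordinate end, a narrow region was called in all 4 libraries with 42 and 24 tags in the BRG1 libraries, against 40 and 48 in the control libraries. Here BRG1 4 was the lowest and BRG1 1 lay between the controls. In total EP300 held 3 and 4 peaks in the BRG1 libraries, against 3 and 3 in the control libraries, and the peak that BRG1 4 had alone was weak, at percentile 7.13.

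CREBBP encodes CBP, the close relative of p300. It lies on chromosome 3 from 38388366 to 38530243 and held 11 and 11 peaks in the BRG1 libraries, against 9 and 10 in the control libraries (means 11 ± 0 and 9.5 ± 0.707, SD, n = 2 each). The groups did not overlap, and the two-sided exact permutation test gave p = 0.333, the smallest value that 2 against 2 libraries allow, so no gene could pass 0.05. Over all gene models, 1.24% had more peaks in both BRG1 libraries than in both control libraries, and CREBBP was the only one of the 10 acetyltransferase genes that did. Its window of 161.9 kb was also long beside the median of 40.7 kb over all genes. Of the regions of CREBBP, only 1 was called in both BRG1 libraries and in neither control library. The other regions without a control peak that had a BRG1 peak were called in 1 BRG1 library each. The covered length overlapped between the groups, with 5235 and 5590 bp in the BRG1 libraries, against 5053 and 5237 bp in the control libraries.

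The lower-coordinate end of CREBBP carried a pair of regions called in all 4 libraries. The stronger one, from 38387235 to 38388021, had 133 and 66 tags in the BRG1 libraries, against 158 and 146 in the control libraries. BRG1 4 had the fewest tags here, and both BRG1 values lay below the control values. The authors' fold overlapped, with 18.1 and 10.8 in the BRG1 libraries, against 18.4 and 17.5 in the control libraries. The weaker one, from 38388257 to 38388558, crossed the end of the model and had 36 and 28 tags in the BRG1 libraries, against 30 and 50 in the control libraries, with the groups overlapping. The strongest region of the whole window was not at CREBBP itself: it covered the end of TRAP1, a mitochondrial chaperone gene 6466 bp away, from 38536294 to 38537440. That region had 163 and 120 tags in the BRG1 libraries, against 187 and 182 in the control libraries.

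KAT2A encodes GCN5, the catalytic subunit of SAGA. It lies on chromosome 12 from 20638493 to 20647464, in a crowded stretch with HSPB9 at a gap of 97 bp on 1 side and DHX58 at 233 bp on the other. Of its 7 regions, 5 lay within 1 kb of an end of another coding gene, so that a peak there cannot be given to 1 gene. The region at the higher-coordinate end, from 20647472 to 20648367, had 78 and 77 tags in the BRG1 libraries, against 85 and 89 in the control libraries. The region at the lower-coordinate end had 59 and 58 tags in the BRG1 libraries, against 94 and 89 in the control libraries. At both ends the BRG1 values lay below the control values. The strongest region of the window, at percentile 84.4, lay over the ends of RAB5C and HSPB9 with 103 and 78 tags in the BRG1 libraries, against 99 and 139 in the control libraries, and there the groups overlapped.

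KAT2B encodes PCAF, the paralogue of GCN5, and its open end was the weakest of the 9 genes that had one in every library. It lies on chromosome 13 from 6985151 to 7099771, and the lower-coordinate end fell into the gap of 418 bp between 2 regions that were called in all 4 libraries. The outer region, from 6984443 to 6985139, had 36 and 29 tags in the BRG1 libraries, against 62 and 49 in the control libraries. The inner one, from 6985558 to 6986530, had 42 and 49 tags in the BRG1 libraries, against 38 and 41 in the control libraries. The outer region was thus lower and the inner one higher in both BRG1 libraries, by a few tags in the inner one. These tags were not counted at the same position, because the summits lay up to 453 bp apart in the outer region and 632 bp in the inner one. In the inner region BRG1 1 and control 1 had 2 peaks each, of which the stronger was taken. A further region inside the gene was called in every library but BRG1 4, and the gene held 4 and 2 peaks in the BRG1 libraries, against 4 and 3 in the control libraries. No region of KAT2B had a mean percentile above 48.9; the gene-end value of 58.0 is higher because it takes the stronger of the 2 regions in each library.

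KAT5 encodes TIP60, the catalytic subunit of NuA4/TIP60, which acts in transcription and DNA repair. On chromosome 2 from 6560544 to 6572461, it had the same 4 regions in all 4 libraries. The region at its higher-coordinate end, from 6571430 to 6572716, had 219 and 267 tags in the BRG1 libraries, against 253 and 248 in the control libraries, so the control values lay between the BRG1 values. The summits in this region lay up to 749 bp apart, so these tags were not counted at the same position. A region inside the model, from 6562948 to 6564036, lay over RNASEH2C, which encodes a subunit of ribonuclease H2, and had 176 and 158 tags in the BRG1 libraries, against 196 and 161 in the control libraries. The groups overlapped there too. The flank region 5074 bp beyond the higher-coordinate end had 94 and 59 tags in the BRG1 libraries, against 100 and 106 in the control libraries, with BRG1 4 the lowest.

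KAT6A encodes MOZ, an acetyltransferase of histone H3 that works with BRPF scaffolds and is needed for blood stem cells in mice. On chromosome 17 from 11002818 to 11109974, it held 7 and 7 peaks in the BRG1 libraries, against 9 and 9 in the control libraries (means 7.0 and 9.0, SD 0.0 in each, n = 2 each). The groups did not overlap, with the same exact permutation p of 0.333. Among all gene models, 15.0% had fewer peaks in both BRG1 libraries than in both control libraries, and 1 of the 10 acetyltransferase genes did, a share near that background. The strong regions of KAT6A were shared. The higher-coordinate end, from 11109600 to 11111064, had 134 and 121 tags in the BRG1 libraries, against 120 and 126 in the control libraries. A region of the gene body, from 11073950 to 11075536, had 95 and 112 tags in the BRG1 libraries, against 107 and 110 in the control libraries, and was split into 2 peaks in control 4. In neither region were the groups apart. Counted as regions, KAT6A had 7 and 7 with a call in the BRG1 libraries, against 9 and 8 in the control libraries.

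KAT6B encodes MORF, the paralogue of MOZ, and is the longest of the 10 genes at 206885 bp, on chromosome 14 from 77390790 to 77597674. No library had a peak within 1 kb of either end, as in 25.8% of all gene models. Its strongest region lay inside the model, 13471 bp from the lower-coordinate end, from 77404261 to 77405896, and belonged with that of KAT7 to the strongest regions of the 10 genes, at a mean percentile of 99.9. The pileup was 593 and 515 tags in the BRG1 libraries, against 812 and 765 in the control libraries, over backgrounds of 35.2 and 35.5 tags in the BRG1 libraries, against 46.7 and 42.8 in the control libraries. The BRG1 values lay below the control values in pileup and in background alike. Beyond the higher-coordinate end, the nearest region began at 1083 bp, just outside the gene-end window. KAT6B held 15 and 16 peaks in the BRG1 libraries, against 14 and 15 in the control libraries, and 12 of its 15 regions were called in all 4 libraries.

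KAT7 encodes HBO1, which acetylates histones around replication origins. It lies on chromosome 12 from 25970966 to 26005006, and its lower-coordinate end carried the strongest gene-end region of the 10 genes, from 25970627 to 25972020. The pileup was 546 and 544 tags in the BRG1 libraries, against 649 and 591 in the control libraries, and the BRG1 values lay below the control values. A flank region 1914 bp beyond the higher-coordinate end had 88 and 71 tags in the BRG1 libraries, against 107 and 118 in the control libraries. The groups were apart in tags there too. The authors' fold at the gene end was 16.5 and 13.9 in the BRG1 libraries, against 16.7 and 16.7 in the control libraries. It did not overlap between the groups, but BRG1 1 lay close to the controls. At the flank region the fold was 19.5 and 13.3 in the BRG1 libraries, against 17.2 and 18.3 in the control libraries, and overlapped. The median fold over the whole list was 8.22 and 6.86 in the BRG1 libraries, against 7.55 and 7.88 in the control libraries. BRG1 4 was thus the lowest there too. The share of all regions with folds apart was not computed. The window held 5 and 3 peaks in the BRG1 libraries, against 5 and 5 in the control libraries, because 2 flank regions on the lower-coordinate side were called in every library but BRG1 4.

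KAT8 encodes MOF, an acetyltransferase of the histone H4 tail that in flies serves dosage compensation. It lies on chromosome 3 from 17362326 to 17373110, and its higher-coordinate end was open from 17372558 to 17373807 with 360 and 304 tags in the BRG1 libraries, against 411 and 369 in the control libraries. The authors' fold at this summit was 22.7 and 18.9 in the BRG1 libraries, against 22.5 and 21.3 in the control libraries. The summits of the 4 libraries lay within 8 bp of each other. Another flank region, from 17382542 to 17383062, had 272 and 137 tags in the BRG1 libraries, against 305 and 309 in the control libraries, and BRG1 4 was again the lowest. KAT8 held 4 and 5 peaks in the BRG1 libraries, against 5 and 5 in the control libraries. Counted as regions, KAT8 had 5 and 5 with a call in the BRG1 libraries, against 6 and 6 in the control libraries. The region counts did not overlap between the groups, while the peak counts did. The share of all gene windows with region counts apart was not computed. A further strong region at the edge of the window, from 17351502 to 17352606, entered it only through the wide peak of BRG1 4. All 4 libraries had a peak in this region. The region counts therefore include it for every library, and the peak counts only for BRG1 4.

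HAT1 encodes the acetyltransferase of free histone H4 in the cytoplasm, which acts on histones before their assembly. It lies on chromosome 15 from 78022147 to 78079669 and had the simplest pattern, with 2 regions called in all 4 libraries and 2 peaks in each. Its lower-coordinate end was open from 78021858 to 78022759, a region that spans the gap of 216 bp to SLC25A12, a mitochondrial carrier gene. The pileup was 262 and 180 tags in the BRG1 libraries, against 303 and 281 in the control libraries. The authors' fold there, 27.1 and 19.4 in the BRG1 libraries, against 26.6 and 25.8 in the control libraries, was the highest of any peak of the 10 genes in each library. The region inside the gene, 21997 bp from the lower-coordinate end, had 24 and 22 tags in the BRG1 libraries, against 28 and 31 in the control libraries.

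Of the 69 regions, 50 (72.5%) were called in all 4 libraries, beside 61.8% of all regions of the series. One region was called in both BRG1 libraries and neither control library, 1.45% of the 69 beside 0.741% of all regions. In the opposite direction 2 regions were called in both control libraries and neither BRG1 library, 2.9% of the 69 beside 4.41%. These shares were close to those of the whole series, and with 1 and 2 regions they show nothing particular to the acetyltransferase genes. The other 16 regions were called in 1 or 3 libraries. Of the 7 called in 3 libraries, 6 lacked only BRG1 4 and 1 lacked only BRG1 1, and of the 9 called in 1 library, 5 were in BRG1 4, 1 in BRG1 1, 1 in control 1 and 2 in control 4. The 6 regions that lacked only BRG1 4 were 8.7% of the 69, beside 6.39% of all regions, and the 5 called in BRG1 4 alone were 7.25%, beside 3.49%.

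The BRG1-only region lay inside CREBBP, from 38448371 to 38448742, 60005 bp from the lower-coordinate end. It was among the weakest peaks of both lists, at percentiles of 0.174 in BRG1 1 and 1.48 in BRG1 4, with 8 and 9 tags over backgrounds of 1.78 and 1.90. The peaks of the BRG1 libraries overlapped by 36 bp, and the nearest control peaks were 1102 bp away in control 1 and 1093 bp away in control 4. A control-only region lay inside KAT6A, from 11098034 to 11098308, at percentiles of 5.94 in control 1 and 14.1 in control 4, with 11 and 13 tags over backgrounds of 1.91 and 1.79. The nearest BRG1 peaks were 5129 bp away in BRG1 1 and 5128 bp away in BRG1 4. Both were near the lower limit of the lists.

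The other control-only region lay at KAT8, from 17374097 to 17374330, and began 987 bp beyond the higher-coordinate end. It was stronger than the other regions called in 1 group only, at percentiles of 30.9 in control 1 and 45.9 in control 4, with 54 and 65 tags over backgrounds of 17.4 and 16.5. It lay beside the main open region of KAT8, and the nearest BRG1 peaks, 477 bp away in BRG1 1 and 289 bp away in BRG1 4, belonged to that region. KAT8 was the only 1 of the 10 genes with a control-only region at an end, beside 1.31% of all gene models, and none of the 10 had a BRG1-only region at an end, beside 0.348%. When 1 library was left out, so that a group could rest on the other library alone, the counts changed. The BRG1-only count was 6 without BRG1 1, 2 without BRG1 4 and 1 without either control library. The control-only count was 8 without BRG1 1, 3 without BRG1 4, 5 without control 1 and 3 without control 4.

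**Figure D3:**
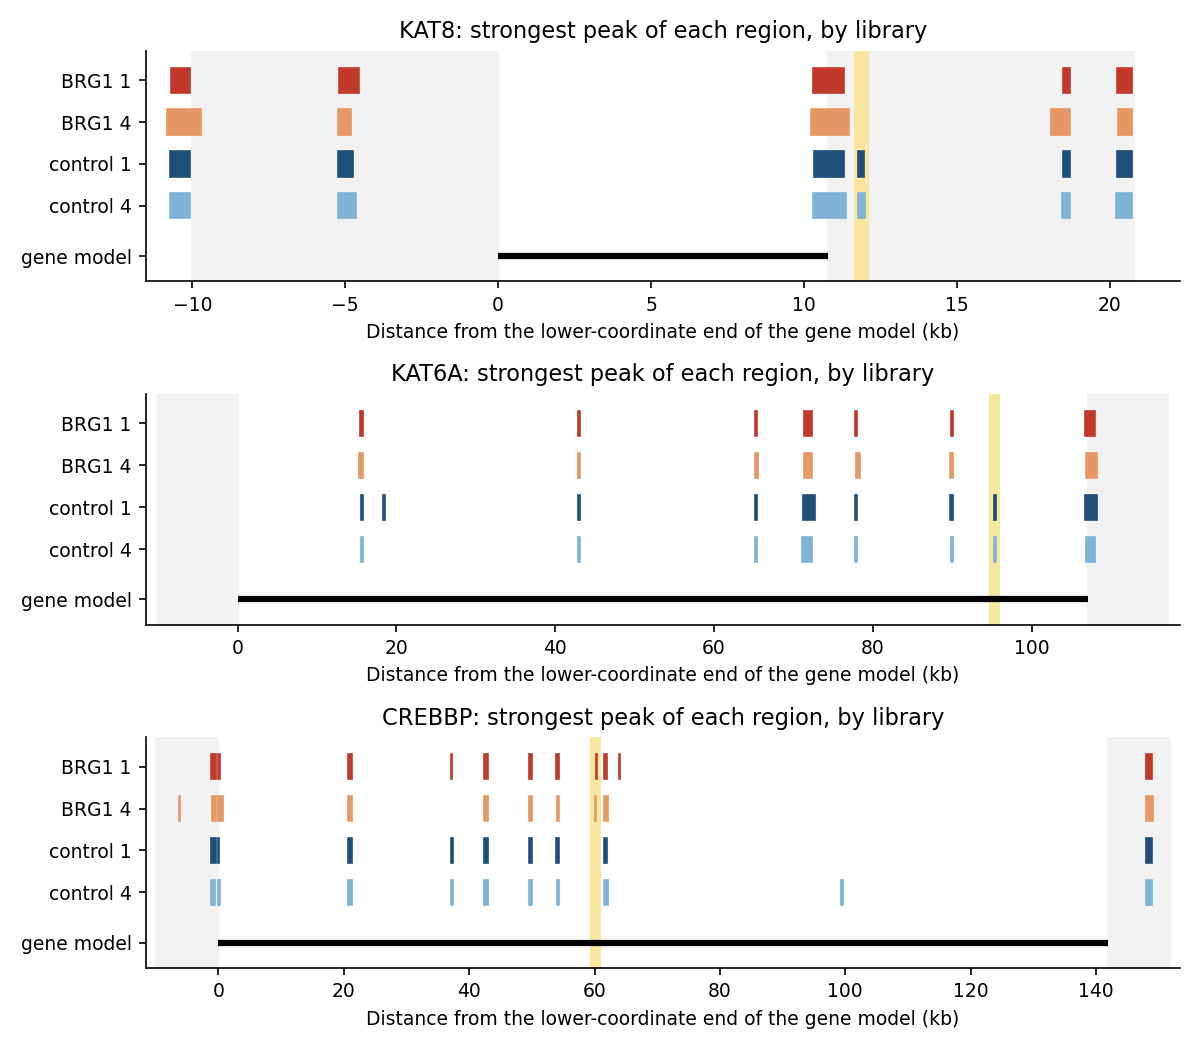
Peaks of each library (coloured blocks, BRG1 libraries above control libraries) along KAT8, KAT6A and CREBBP, as distance in kb from the lower-coordinate end of the gene model (black line), with the window's flanks in grey and the regions called in 1 group only in yellow. The yellow regions hold control peaks only at KAT8 and KAT6A and BRG1 peaks only at CREBBP, beside regions shared by all 4 libraries.

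Regions called in more libraries were stronger, here as in the whole series, and a call itself depends on peak strength. For the 50 regions shared by all 4 libraries the median of the mean percentile was 66.5, from 10.1 to 99.9, beside 60.6 for such regions of the whole series. The 16 called in 1 or 3 libraries had a median of 17.0, from 0.31 to 36.4, beside 14.2 for regions of the whole series that were neither in all 4 libraries nor in 1 group only. Regions at gene ends ranked higher than those of gene bodies. Of 15 regions at an end, with a median of 80.5, 12 were called in all 4 libraries, and of 36 regions of gene bodies, with a median of 39.5, 24 were. The 18 flank regions had a median of 78.0. Over all positions, 11 of the 69 regions were within 1 kb of an end of another coding gene, with a median of 81.7. Of the 10 genes, 7 had another coding gene in the window, and in 7 the strongest region lay at an end of the gene itself.

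**Figure D4:**
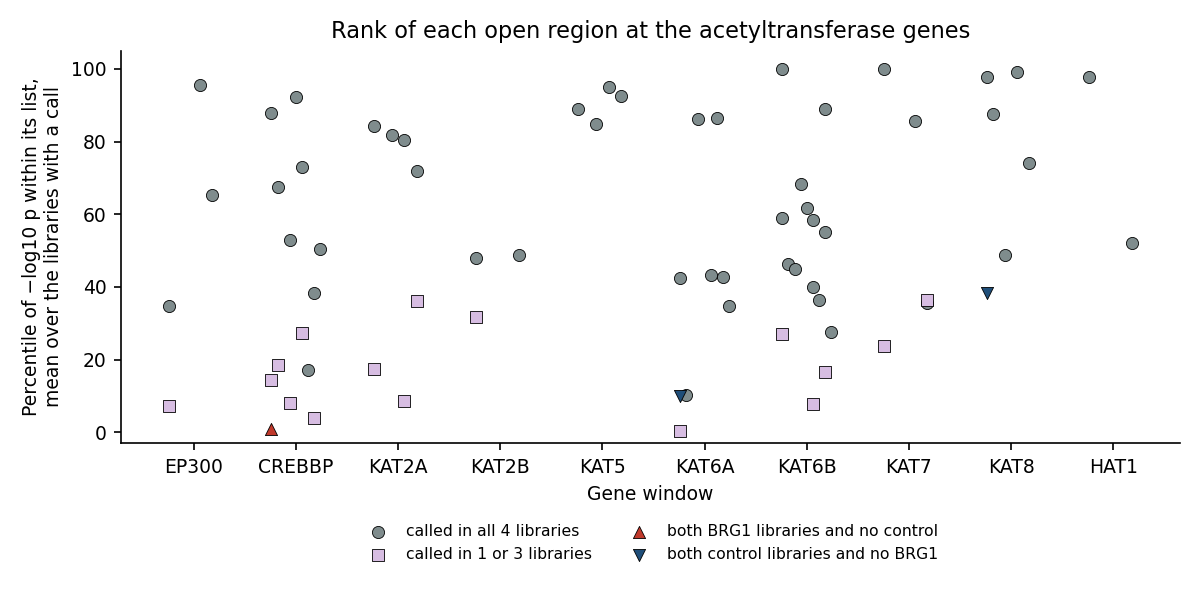
Percentile of −log10 p within its own list (vertical axis, mean over the libraries with a call) for each of the 69 regions by gene window (horizontal axis), with symbols for the libraries that called it. Regions called in all 4 libraries reach from 10.1 to 99.9, while the others, 16 called in 1 or 3 libraries and 3 in 1 group only, reach 38.4 at most, at the control-only region of KAT8.

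Summits of shared regions lay close together in most cases. The distance between the outermost of the 4 summits had a median of 48.5 bp over the 50 shared regions, from 7 to 889 bp. Widths differed more, and mainly in BRG1 4. Over the 50 shared regions the median width was 481 and 648 bp in the BRG1 libraries, against 527 and 542 bp in the control libraries. Over all 75244 shared regions of the series it was 493 and 629 bp in the BRG1 libraries, against 520 and 504 bp in the control libraries. BRG1 4 had the widest peak in 20 of the 50 regions, beside 51.5% of all shared regions, BRG1 1 in 5, control 1 in 13 and control 4 in 12. The part of peak width in the calls that only BRG1 4 gained or lacked was not tested.

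The edge of the window decided a few regions. Just inside it lay the KAT8 region 9720 bp from the gene, at percentile 97.7, and a KAT6B region at 8999 bp and percentile 39.9. Just outside lay a region 10997 bp from KAT7, called in 1 or 3 libraries at percentile 5.94, a BRG1-only region 11403 bp from KAT5 at 34.8, a control-only region 11568 bp from KAT6B at 7.91 and a region 11751 bp from KAT6A at 4.52.

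Acetyltransferases act in complexes, and the genes of their partners were examined by the same measure. Of 110 listed partner genes, 108 matched a gene model, and 98 of these (90.7%) were open at an end in all 4 libraries, beside the 68.2% of all coding gene models. Of the other partner genes 7 had no end peak anywhere and 3 had one in some libraries. A BRG1-only region lay at an end of 1 of the 108, and a control-only region at none.

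Among the partners of KAT2A and KAT2B, 16 of 17 SAGA and ADA2B genes had an end peak in all 4 libraries, with ENY2 of the deubiquitinase module at a mean percentile of 99.8 and the adaptor gene TADA2B at 97.7. TRRAP, the large scaffold shared with NuA4/TIP60, lacked an end peak in control 4. Of 8 ATAC genes 7 were open at an end in all 4 libraries, such as MBIP at 98.2 and YEATS2 at 97.0. KAT14, the other acetyltransferase of ATAC, had none, and its strongest region lay 3206 bp outside the model at percentile 85.9. The NuA4/TIP60 list, the partners of KAT5, was made without TRRAP, which was counted with SAGA only. All 16 genes of this list had an end peak in all 4 libraries. Among them were the remodelling ATPase gene EP400 at 96.8 and the helicase gene RUVBL2 at 99.7. The weakest of this list was RUVBL1 at 64.1.

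The partners of KAT6A, KAT6B and KAT7 were open at an end in all 4 libraries in 7 of 8 genes. The scaffold gene BRPF1 stood at a percentile of 98.6 and BRD1 at 50.7. JADE1, a scaffold of HBO1, had no end peak in any library, like KAT6B, and its strongest region lay inside the model, 139984 bp from the nearer end, at percentile 94.9. For KAT8 all 10 genes of the MSL and NSL complexes had an end peak in all 4 libraries, from MSL1 at 52.5 to MSL2 at 99.4. So did all 5 genes of histone chaperones around HAT1, among them RBBP7, the direct partner of HAT1, at 89.4 and ASF1B at 99.2. The 11 genes of p300 and CBP cofactors were likewise all open, with CREB1 at 98.3 and HIF1A at 97.3.

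Of 15 other acetyltransferase genes 13 had an end peak in all 4 libraries, such as ATF2 at 99.5 and the coactivator gene NCOA3 at 92.0. NCOA2 and NAA60 had none, with their strongest regions at percentiles of 97.6 inside the model and 98.3 at 1822 bp outside it. Of 10 matched acetyl-lysine readers 7 were open at an end in all 4 libraries, among them TRIM24 at 98.9 and BRD9 at 54.7. BRDT, known from the testis, and BAZ2B had no end peak, and MLLT3 had one in BRG1 4 only. Of 8 acetyl-CoA genes 6 were open at an end in all 4 libraries, led by ACLY, which makes acetyl-CoA from citrate, at 99.3, and ACSS2 at 98.1. The citrate carrier gene SLC25A1 had no end peak in any library, and ACSS1 lacked one in BRG1 4.

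STAT3, which encodes a transcription factor that binds p300, was the partner with a BRG1-only end region. The region lay on chromosome 12 from 20407668 to 20408421, at percentiles of 0.35 in BRG1 1 and 43.2 in BRG1 4, and the authors' fold was 1.87 in BRG1 1 and 2.8 in BRG1 4. It was thus among the weakest calls of BRG1 1. STAT3 also had an end peak in all 4 libraries, at a mean percentile of 99.6.

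**Figure D5:**
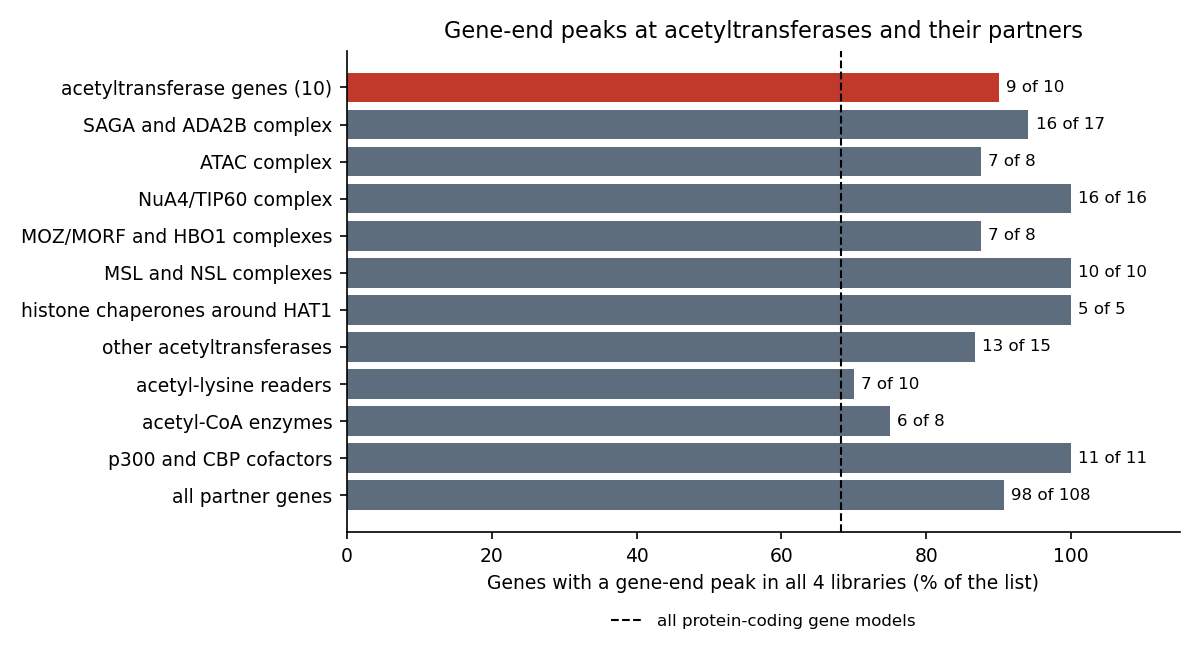
Share of genes with a gene-end peak in all 4 libraries (horizontal axis, % of matched genes) for the 10 acetyltransferase genes and each list of partners, with the count beside each bar; the dashed line marks the 68.2% of all coding gene models. The shares reach from 70.0% for acetyl-lysine readers to 100% for NuA4/TIP60 (listed without TRRAP), MSL and NSL, the histone chaperones and the p300 and CBP cofactors.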

How the data were processed

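The authors deposited 1 narrowPeak list per ATAC-seq library. The tools MACS2, BWA, Bowtie, SAMtools and FastQC, without version or role, and the build Sscrofa11.1 are listed, per the submitters' processing notes. The Tn5 shift, duplicate handling and caller settings, which change the number and width of peaks, were not given in these sources. The deposited fold was read as a ratio of pileup to local background in the same library, with 1 added to each. The −log10 of the p-value and that of the q-value come from the authors' caller, and the deposited score derives from the q-value. Ranks by p-value were taken within each list. Folds, and pileups recovered from fold and p-value, were also set side by side between libraries, without scaling. From fold and p-value together, a whole-number pileup and its background were recovered for all 236 peaks examined (relative tolerance 0.0005); the absolute depth is unknown and intervals of counting error could not be made.

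Peaks sharing 1 bp or more were merged into regions. BRG1-only regions were called in BRG1 1 and BRG1 4 and in no control library; for control-only regions it was the reverse. The RefSeq gene table gives no strand or exons, so gene ends stand for the planned gene starts, exon, intron and UTR could not be assigned, and the planned promoter sequences and motifs were not used here. Members, lists, tests and alternatives were chosen with earlier results of these data known. Named were all 10 genes, their strongest and end regions, all regions called in 1 group only, and list genes with such an end region, with no end peak, or as examples; genes with an end peak in some libraries, the densities of KAT2A and KAT2B and the other flank regions were named after their values were seen. BRD3, CECR2 and KRT14 had no match. Python 3.11.15, pandas 2.3.3, NumPy 2.4.6, SciPy 1.17.1 and matplotlib 3.10.9 were used. Merging, region calls, gene-end calls and covered length were tested on simulated data.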

Additional observations from a re-analysis of the deposited data

How the results depend on the processing

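Of 66 values recomputed under other settings, 49 stayed within the spread between libraries or within 1.5 times the count reported, and 17 moved. With a −log10 q of at least 5, the ratio of peak numbers was 0.9, with 0 BRG1-only and 1 control-only region. With lists cut to the strongest 90851 peaks it was 1.02, with 1 control-only region, and the 1 BRG1-only region was another one, at KAT6A. With 45425 peaks a list, 27 regions were called in all 4 libraries and 0 in either group only. Without flanks these were 33 in all 4 libraries and 1 control-only region, and flanks of 25 kb gave 2 BRG1-only regions and 4 control-only ones. An overlap of 50% gave 0 BRG1-only regions. The KAT8 region stayed control-only at the stricter q and at 90851 peaks, and the CREBBP and KAT6A regions did not. Leaving out 1 library gave 1 to 6 BRG1-only and 3 to 8 control-only regions, ratios of peak numbers from 0.96 to 0.992 and of covered length from 0.933 to 1.06. With a gene-end window of 3 kb, the 10 acetyltransferase genes and 103 partner genes had an end peak in all 4 libraries.

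The replicate block, the mean of the ratios within libraries of the same number, gave 0.976 for peak number and 0.997 for covered length and changed no call. Over the calls of all regions, the deviations of same-numbered libraries had a correlation of -0.01. With 2 libraries a group and no label on it, this value cannot tell whether same-numbered libraries share a culture or batch. The absolute depth is unknown, and its part in the calls of weak regions was not tested. With 2 libraries a group no value could pass the test.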
